A study of Caenorhabditis elegans with 30 samples.

Results

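The comparison described here is between swsn-9 mutants and wild type when neither had met ethanol. It rests on 10 of the 30 libraries of the study, grouped by their labels. They are 5 libraries of the strain RA503, which carries swsn-9(ok1354), and 5 of N2, the wild-type laboratory strain of Caenorhabditis elegans, all kept on plates with 0 mM ethanol and harvested at once. Hermaphrodites were placed on the plates at the last larval stage, L4, and held there with food for 18 h, so the animals were adults of the first day. RNA was taken from whole animals and selected for polyadenylated transcripts, and each replicate was collected on another day. The mutants are a single strain with a single deletion allele, outcrossed to N2, and anything else that sets the strain apart from N2 cannot be told apart from loss of swsn-9. It is not stated whether mutants and wild type were collected on the same days. A difference in collection days or cultures between the genotypes therefore cannot be told apart from genotype either. Another 10 libraries, the same genotypes after 18 h on 400 mM ethanol, and 5 of wild type harvested 6 h later at 0 mM are used for comparison.

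SWI/SNF complexes are machines that use ATP to slide or evict nucleosomes and so change which stretches of DNA are open to transcription factors. They share a core with an ATPase, SWSN-4 in the worm, and carry signature subunits that sort them into BAF and PBAF forms. SWSN-9 belongs to the PBAF form and is related to the bromodomain proteins BRD7 and BRD9 of mammals. In C. elegans these complexes are known for roles in cell fate decisions, in the somatic gonad and in the nervous system.

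Between 11812827 and 16456780 reads per wild-type library and between 13505523 and 17122365 per mutant library were counted on genes. The mutant libraries held more genes with a count, 17032 to 18289 against 16000 to 17028. Ribosomal RNA genes took 0.503% to 6.43% of the counts in wild type, the highest value being that of replicate 5, and 0.299% to 1.02% in mutants. Over the 500 most variable genes the first principal component (72.3% of their variance) set the genotypes apart, at −33.3 to −29.3 in wild type and 24.9 to 40.1 in mutants. Replicate 5 of the mutants stood farthest out on both components (40.1 and −26.2), and counts in the text that move by over 1.5 times without it are given with and without it. Levels of single genes are CPM, counts scaled to a common library size with the TMM factors of edgeR, and are not corrected for gene length. These factors split by genotype, at 0.914 to 0.976 in wild type and 1.02 to 1.12 in mutants. The CPM of all genes tested summed to a median of 1053400 in wild type libraries and 968270 in mutant ones. The size of small, uniform shifts therefore rests in part on the scaling. Means carry the SD of 5 libraries, and differences are log2 fold changes of mutants over wild type with their standard error. A gene was called when its adjusted p in the quasi-likelihood test of edgeR, over all genes tested, was under 0.05.

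The mutated gene itself was read first. swsn-9 (WBGene00007256, chromosome I, 7224656 to 7227765 of WBcel235) stood at 201, 190.02, 203, 182 and 190.2 CPM in wild type and at 58.3, 58.6, 65.5, 62.8 and 52.3 CPM in mutants. Every mutant library was far below every wild-type one. The log2 fold change was −1.7 ± 0.05 (edgeR, adjusted p = 4.63e-22; two-sided exact permutation p = 0.00794, the smallest that 5 libraries against 5 can give). Reads on the gene remained in every mutant library, and since the table counts whole genes it does not show from which exons they came. At 400 mM the log2 fold change was −1.67.

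The other subunits of the complex differed little. Of 8 core subunits tested, 0 were higher and 4 lower, namely swsn-3 (−0.25 ± 0.05), swsn-6 (−0.19 ± 0.05), ham-3 (−0.16 ± 0.04) and snfc-5 (−0.15 ± 0.05). Over all 16934 genes tested, 23.2% were called higher and 22.3% lower, so 4 of 8 is above the share of all genes, in differences of under 0.3 on the log2 scale. The ATPase gene swsn-4 had 409.6 ± 21 CPM in wild type and 405 ± 37.4 in mutants, a log2 difference of −0.02 ± 0.05 that was not called. Of the PBAF subunits, swsn-7 was called lower (−0.18 ± 0.06, adjusted p = 0.00981), while pbrm-1, the polybromo gene, and phf-10 were not, at −0.01 ± 0.05 and −0.08 ± 0.07. let-526, the ARID-domain subunit of the BAF form, stood at −0.03 ± 0.05 and was not called. These small calls depend on mutant replicate 5: without it 1 of the 8 core subunits was lower, and swsn-7 was at −0.08 (adjusted p = 0.19).

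A large share of the transcriptome differed at baseline. Of 16934 genes tested, 7707 (45.5%) were called, 3933 higher and 3774 lower in mutants. The numbers in each direction were close, but the sizes were not: the median log2 fold change was 0.91 among genes called higher and −0.27 among those called lower. More than 2-fold higher were 1799 genes and more than 2-fold lower 197. Above 8-fold the numbers were 430 and 30. Of these, 316 and 12 had libraries that did not overlap between the genotypes, 363 of the 430 were still called without mutant replicate 5, and 22 of the 30 without wild-type replicate 5. For 2566 genes (15.2%) all 5 mutant libraries lay above all 5 of wild type, and for 2542 (15%) all lay below. The median over all genes tested was 0.06, or 0.01 with genes of few counts set at their detection bound, and it serves as the reference for the gene groups that follow. Since whole animals were sequenced, fewer cells of a type and less RNA per cell cannot be told apart in any of these values. RNA of embryos held in the uterus cannot be told apart from RNA of the mother either, in any of the gene groups below.

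The clearest gains were in genes of the epidermis and its cuticle, the collagen coat that worms rebuild at each molt. Of 35 hypodermis and seam genes tested, 24 (68.6%) were higher and 1 lower, with a median log2 fold change of 2.54, or 2.29 with genes of few counts at their bound. In 19 of them all mutant libraries were above all those of wild type. dpy-17 (chromosome III, 5107330 to 5108492), a cuticle collagen, had the smallest p of all genes higher in mutants. Its level was 7.02, 7.45, 8.79, 4.72 and 7.16 CPM in wild type and 115, 125, 138, 113 and 195 CPM in mutants. The groups were far apart, with mutant replicate 5 above the others, and the log2 fold change was 4.29 ± 0.20 (adjusted p = 1.13e-16). sqt-3, the collagen that works with dpy-17, went from 4.16, 5.27, 6.67, 3.84 and 1.77 CPM to 111, 126, 133, 107 and 196 CPM. It was 30.9-fold higher, at 4.95 ± 0.28 on the log2 scale (adjusted p = 1.09e-14), and mutant replicate 5 again led.

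noah-1 and noah-2 encode zona pellucida domain proteins of the apical matrix that covers the epidermis. noah-2 (chromosome IV, 14091254 to 14096626) stood at 3.47, 6.47, 7.61, 4.28 and 5.55 CPM in wild type and at 67.8, 73, 73.6, 71.9 and 76.6 CPM in mutants. noah-1 (chromosome I, 5874416 to 5878958) stood at 5.46, 9.77, 13.3, 7.12 and 8.69 CPM and 79.6, 82.9, 99.9, 84.1 and 92.1 CPM. For both genes the mutant libraries were tightly grouped and replicate 5 did not stand out. The log2 fold changes were 3.73 ± 0.18 and 3.31 ± 0.19 (adjusted p = 4.95e-16 and 2.94e-14). mlt-11, a Kunitz-domain protein needed for molting, rose from 2.45 ± 1.43 to 73.8 ± 13.7 CPM (4.92 ± 0.31). The furrow collagens dpy-2, dpy-7 and dpy-10 went from 0.132 ± 0.135, 0.218 ± 0.125 and 5.15 ± 0.376 CPM to 14.5 ± 3.77, 14.7 ± 3.74 and 30.2 ± 8.15 CPM.

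**Figure D1:**
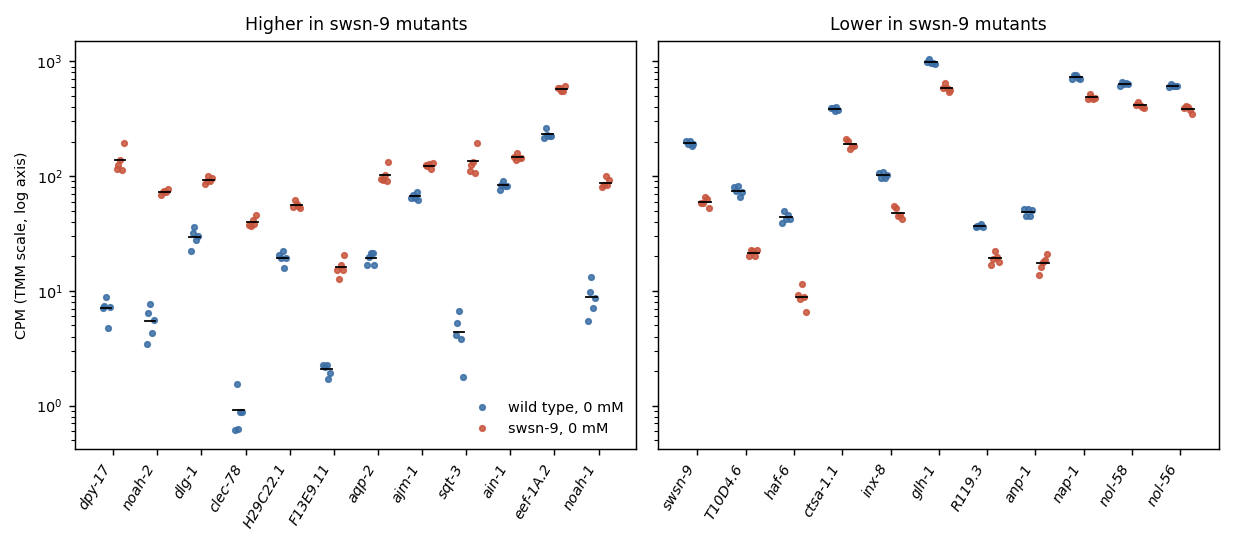
Levels of the genes with the smallest p in each direction among those whose genotypes do not overlap, in CPM on a log axis, for 5 wild-type (blue) and 5 swsn-9 (red) libraries at 0 mM, with a black line at each mean. dpy-17 goes from a mean of 7.03 ± 1.47 CPM to 137 ± 33.8 CPM, while the lower genes differ less, such as nol-56 from 612 ± 13.2 to 383 ± 22.9 CPM, and nhr-131, at 0 in all mutants, is not drawn.

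col-19, the collagen of the adult cuticle, stood at 1059.9 ± 188 CPM in wild type and 1209 ± 203 CPM in mutants and was not called (0.19 ± 0.13, adjusted p = 0.262). The member called lower was not a structural gene: nhr-23, the nuclear receptor that drives molting cycles, went from 71.9, 69.6, 70.4, 66.5 and 68.9 CPM to 59.3, 58.9, 56.4, 48.8 and 49 CPM. All its mutant libraries lay below those of wild type, at −0.35 ± 0.06 on the log2 scale (adjusted p = 3.73e-05). nhr-23 (chromosome I, 7214745 to 7221299) lies close to swsn-9 on the same chromosome. Its partner in epidermal development nhr-25 was higher (1.46 ± 0.26).

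A few more genes of the epidermis and cuticle were singled out after their values were seen, and stand for themselves only. hch-1, the protease that opens the eggshell, went from 0.347, 1.48, 0.785, 0.819 and 0.322 CPM to 22.2, 20.4, 27.6, 22.6 and 31.4 CPM. No wild-type library came near a mutant one (5.00 ± 0.40, adjusted p = 1.73e-10). dpy-14, a collagen gene, went from 2.68 ± 1.52 to 111 ± 26.2 CPM (5.38 ± 0.33), and fbn-1, a fibrillin, from 5.92 ± 2.42 to 41.6 ± 10.04 CPM (2.81 ± 0.27). In wild type harvested 6 h later hch-1 and fbn-1 stood at 0.179 ± 0.199 and 1.51 ± 1.05 CPM. RNA of embryos held in the uterus and RNA of the mother cannot be told apart here.

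Some genes were close to silent in wild type. Of the genes tested, 74 had at most 3 counts in every wild-type library and at least 10 in every mutant one. Of the 74, 66 were also called higher at 400 mM, where 26.8% of all genes tested were. Those are other libraries, from exposures run in parallel. In 7 of the 74 all 5 wild-type libraries had 0 counts. F41F3.3 (chromosome V, 4647769 to 4648239) had 0 wild-type counts against 1320 in mutants, at least 354-fold higher against a floor of 3 counts over the group. cut-2, a cuticlin of the insoluble cuticle, had 3 counts in all wild-type libraries together against 1604, a ratio of 430 with a 95% counting interval of 147 to 2089. The collagens dpy-3 and col-121 had ratios of 239 (81.4 to 1160) and 321.5 (88.7 to 2659). H42K12.3 and ZK180.5 followed with 130 (55.4 to 401) and 70.4 (35.5 to 164). These intervals cover counting error only. By name, the 74 held 4 col, 2 cut, 2 cutl, 2 grl, 2 wrt, 1 dpy, 1 abu and 1 lpr gene, and 0 of the clec, nhr, nas, ptr, mlt and oac genes. The other genes of the 74 were not counted by family.

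By name families, the col, cutl and dpy genes of the body surface held more higher than lower members. The families given here are a chosen part of the 152 counted. Of the col genes tested 58 (47.5%) were higher and 6 lower, and of 26 cutl genes 16 and 2. Of 24 dpy genes 17 were higher and 2 lower. Tetraspanins (tsp, 12 and 2 of 19), galectins (lec, 9 and 0 of 12) and the vab genes for body morphology (7 and 0 of 10) leaned the same way. Nuclear hormone receptors were higher in 80 and lower in 10 of 202. For the col genes the number higher without mutant replicate 5 was 44.

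**Figure D2:**
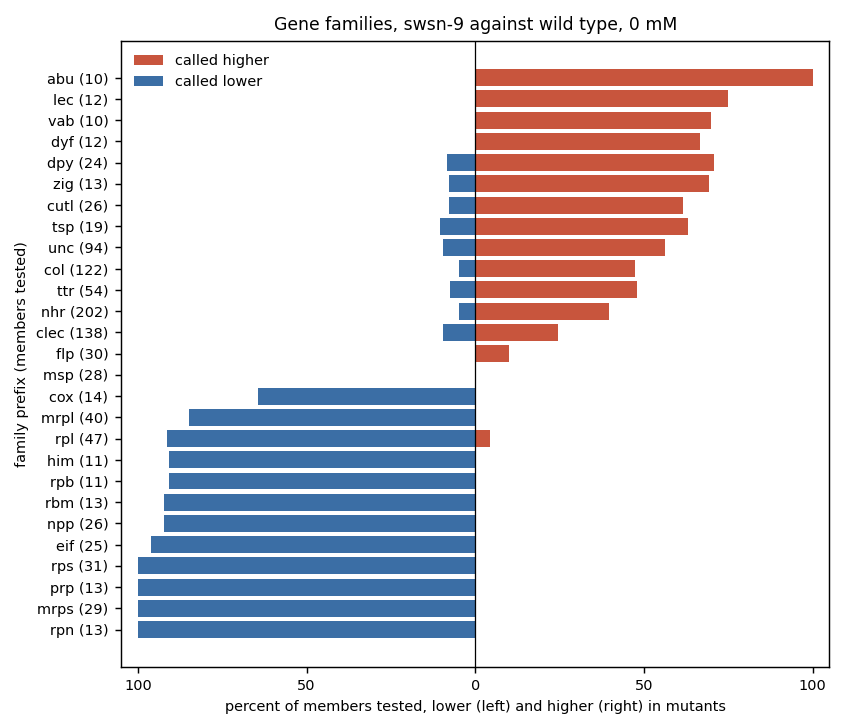
Share of the tested members of gene families called higher (red, right) or lower (blue, left) in swsn-9 mutants at 0 mM, with the number tested in brackets. The families drawn are a chosen part of the 152 counted. All 10 abu genes and 17 of 24 dpy genes are to the right, all 31 rps and all 29 mrps genes to the left, and none of the 28 msp genes is called in either direction.

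The pharynx, whose lining is also a cuticle, showed 20 of 25 genes higher (80%) and 0 lower, with a median of 1.3, but the count rested on a single library. Without mutant replicate 5 the count was 9. All 10 abu genes (7 by DESeq2), which encode secreted proteins of the pharyngeal cuticle, were called, 7 of them with few counts, and without replicate 5 the count was 3. The summed level of the abu genes was 0.378 to 1.65 CPM in wild type and 3.88 to 38 CPM in mutants, the 38 being replicate 5. abu-14 was present in all mutant libraries, at 1.59, 4, 3.66, 1.82 and 8.16 CPM against 0.0867, 0.0703, 0.0785, 0.063 and 0.0804 CPM in wild type. Its groups did not overlap with or without replicate 5, and its log2 fold change was 5.55 ± 0.58 (5.09 without it). The abu genes are close copies, so reads counted only where they align once may be lost or split among them. pha-4, the FoxA factor that specifies the pharynx, went from 6.27 ± 1.72 to 15.1 ± 2.19 CPM (1.27 ± 0.16), and phat-2, a gland toxin gene, from 0.105 ± 0.109 to 0.957 ± 0.261 CPM (3.11 ± 0.59).

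Both junction genes described next are among the 12 higher genes of smallest p, and junction genes as a group were not counted. dlg-1 (chromosome X, 5479700 to 5484941), the Discs large scaffold of the apical junction, stood at 22.4, 31.6, 35.9, 28 and 30.2 CPM in wild type and 85.8, 90.2, 100.5, 89.9 and 96.1 CPM in mutants. ajm-1 (chromosome X, 9082946 to 9113619), its partner in the same belt, stood at 64.9, 68.8, 64, 72.5 and 62.3 CPM and 124, 121, 128, 115 and 129 CPM. The lowest mutant library exceeded the highest wild-type one for both, with log2 fold changes of 1.64 ± 0.08 and 0.89 ± 0.05 (adjusted p = 1.05e-15 and 1.02e-14). aqp-2, a water channel of the excretory system, went from 16.8, 19.7, 21.2, 21.4 and 16.7 CPM to 95.2, 92.4, 103, 89.7 and 131 CPM. It was 5.32-fold higher (2.41 ± 0.13), with no overlap. Of 15 excretory canal, duct and gland genes 9 (60%) were higher and 0 lower (median 0.60), among them lpr-3, a lipocalin of the duct matrix (4.06 ± 0.34), and let-653, a matrix protein that keeps the duct open (1.11 ± 0.19).

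Among the remaining genes with the smallest p, clec-78 (chromosome IV, 3989102 to 4014235), a C-type lectin, went from 0.607, 1.55, 0.628, 0.882 and 0.885 CPM to 37.5, 36.7, 41.2, 38.3 and 46 CPM. The log2 fold change was 5.42 ± 0.28, and no wild-type library came near the mutant ones. H29C22.1 went from 19.4 ± 2.35 to 56 ± 3.39 CPM (1.53 ± 0.08) and F13E9.11 from 2.07 ± 0.247 to 16.05 ± 2.96 CPM (2.96 ± 0.16). The tables used here give no function for either. eef-1A.2, a gene for translation elongation factor 1A, stood at 215, 262, 227, 225 and 224 CPM and 579, 580.02, 549, 547 and 612 CPM. It was higher by 1.31 ± 0.08, while eef-1A.1, which encodes the same protein and holds most of its RNA, was lower, at −0.27 ± 0.05. Reads that fit both copies were not counted, so the size of either change is uncertain.

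Timing genes of the larva were counted in a list that shares dpy-7, col-19, nhr-23, nhr-25 and mlt-10 with the epidermal one. The highest value in it, 5.99, is that of the collagen dpy-7, and nhr-23 is among its lower members. Of 20 heterochronic and molting clock genes 12 (60%) were higher and 2 lower, with a median of 0.63. hbl-1 (chromosome X, 5822142 to 5827755), a hunchback-like factor that holds back later larval fates, stood at 5.29, 5.9, 6.36, 6.99 and 7 CPM in wild type and at 47, 40.5, 47.7, 43.5 and 65.8 CPM in mutants. The groups were far apart, with mutant replicate 5 highest, a log2 fold change of 2.95 ± 0.18 (adjusted p = 5.04e-14). lin-42, the Period homologue, and lin-14 followed at 1.25 ± 0.15 and 0.72 ± 0.13. lin-28, which acts beside hbl-1, did not pass the test (0.09 ± 0.06, adjusted p = 0.252), nor did lin-29 (0.32 ± 0.25) or daf-12 (0.22 ± 0.10). lin-41, an RNA-binding repressor also abundant in oocytes, was lower at −0.35 ± 0.07. Of the microRNA effectors, the GW182 protein gene ain-1 went from 83.1 ± 5.48 to 146 ± 7.3 CPM (0.81 ± 0.05) and the Argonaute alg-1 from 61.7 ± 4.35 to 99.9 ± 3.52 CPM (0.69 ± 0.06). Neither overlapped between genotypes.

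Among the lists of neuronal genes, that of sensory cilia had the highest median. Of 23 cilium genes 18 (78.3%) were higher and 0 lower, with a median of 1.95 (1.7 with genes of few counts at their bound). The levels were low throughout, and the summed level of the list was 46.01 to 50.1 CPM in wild type and 76.2 to 81.4 CPM in mutants. che-3, the dynein that returns cargo from the ciliary tip, stood at 2.17, 1.76, 2.28, 3.21 and 2.49 CPM and 9.65, 7.19, 8.1, 11.32 and 9.83 CPM. The lowest mutant value was well above the highest in wild type (1.95 ± 0.22, adjusted p = 2.21e-08). dyf-7, which anchors sensory dendrite tips, went from 0.735 ± 0.239 to 3.94 ± 1.1 CPM (2.4 ± 0.27). che-13 and osm-12, parts of intraflagellar transport and of the BBSome, were higher by 2.72 ± 0.47 and 2.5 ± 0.44. The filter on low levels bears on this list: with a mean count of at least 10 asked for, 8 members were called.

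Broader neuronal genes were higher by less. Of 20 pan-neuronal genes 15 (75%) were higher and 3 lower, with a median of 0.56. unc-64, the syntaxin of synaptic release, went from 12.1 ± 2.21 to 18.9 ± 0.95 CPM (0.65 ± 0.11). egl-3 and egl-21, which process neuropeptides, were at 0.92 ± 0.19 and 0.77 ± 0.16. The 3 lower members, maco-1 (−0.22 ± 0.04), ehs-1 (−0.19 ± 0.05) and unc-11 (−0.14 ± 0.05), code for macoilin and for 2 adaptors of endocytosis. Without mutant replicate 5 only maco-1 was called lower, at −0.14. The genes for neuropeptides were mostly not called: 3 of 30 flp genes and 13 of 66 nlp genes were higher and 0 lower in each family. At an unadjusted p under 0.05, 11 flp and 16 nlp genes were higher and 1 nlp gene lower. By DESeq2, 6 flp and 13 nlp genes were higher. Of 11 glia genes 6 were higher, led by ptr-10 (3.33 ± 0.44) and pros-1, the Prospero homologue (1.94 ± 0.29).

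Among 18 genes of neurotransmitter identity 3 were higher and 2 lower. The number higher was 1 without wild type replicate 3, 6 without swsn-9 replicate 3 and 5 by DESeq2 or with RLE or upper-quartile scaling. The lower ones act in making tyramine and octopamine. tbh-1 (chromosome X, 15500256 to 15504895), the enzyme that turns tyramine into octopamine, stood at 260.3, 278, 306, 262 and 265 CPM in wild type and at 162, 174, 167, 136 and 129 CPM in mutants. All mutant values were below the wild-type ones, at −0.84 ± 0.06 (adjusted p = 8.43e-12). tdc-1, which makes tyramine from tyrosine, went from 289.8 ± 23.6 to 240.1 ± 18 CPM (−0.27 ± 0.06). Both genes are known to be used in the sheath of the somatic gonad as well as in neurons. snf-11, a GABA transporter, was the clearest higher member (1.53 ± 0.20).

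The somatic gonad gave a divided picture: of 20 genes 7 were higher and 3 lower, with a median of 0.09. inx-8 (chromosome IV, 11673843 to 11675635), an innexin of the gap junctions between sheath and germ cells, stood at 107, 95.3, 108, 97.1 and 101 CPM in wild type and at 54.3, 52.9, 45.2, 45.5 and 42.2 CPM in mutants. Its level was lower by more than 2-fold with no overlap (−1.08 ± 0.06, adjusted p = 7.47e-15). Its close relative inx-9 (chromosome IV, 11676354 to 11678497), the next gene, stood at 20.1 ± 0.509 and 20.3 ± 1.78 CPM and was not called (0.02 ± 0.08). dgn-1, a dystroglycan, and mig-17, a protease on the path of the distal tip cells, were higher at 0.48 ± 0.08 and 1.18 ± 0.19. Of 21 innexin genes in all, 13 were higher and 5 lower.

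Muscle, intestine and vulva shifted by less than epidermis. Of 25 body wall muscle genes 16 (64%) were higher and 1 lower (median 0.39), with the calcium pump sca-1 at 0.26 ± 0.04, the troponins tni-1, mup-2 and tni-3 at 0.86 ± 0.15, 0.66 ± 0.12 and 1.05 ± 0.19, and the myosin myo-3 at 0.5 ± 0.16. Of 30 intestine genes 15 (50%) were higher and 3 lower (median 0.20; 1 lower without mutant replicate 5). Those of smallest p were ttr-2, of the transthyretin-related family (0.86 ± 0.05), the cathepsin B-like protease cpr-1 (1.05 ± 0.09), spp-1, a saposin-like antimicrobial protein (1.03 ± 0.10), and ifb-2, an intermediate filament of the gut lining (0.72 ± 0.07). elt-2, the GATA factor of the intestine, went from 11.27 ± 1.54 to 14.3 ± 1.32 CPM (0.34 ± 0.12). Of 16 vulva and uterus genes 9 were higher and 1 lower, the lower one being lin-3, the EGF signal of vulval induction (−0.26 ± 0.06), with unc-53 at 1.17 ± 0.11 and the Pax gene egl-38 at 1.98 ± 0.35 among the higher. Of 8 coelomocyte genes 1 was higher, lmp-1 (0.4 ± 0.04), and 1 lower, cup-2, whose call was lost under most other settings.

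**Figure D3:**
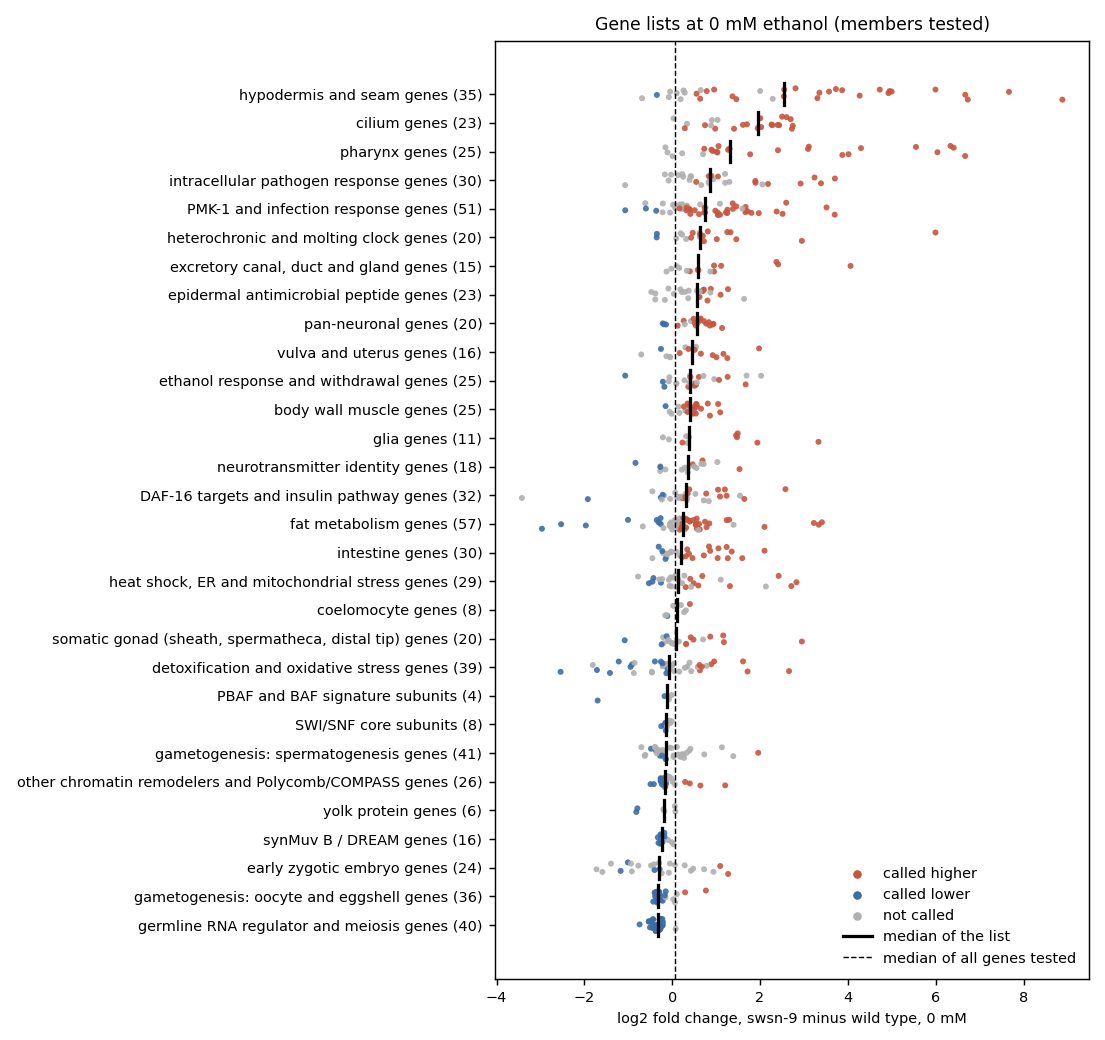
Log2 fold changes of swsn-9 mutants over wild type at 0 mM for the members of 30 gene lists, coloured by call, with the median of each list as a bar and the median of all genes (0.06) as a dashed line. Hypodermis and seam genes (median 2.54) and cilium genes (1.95) are at the top, and germline and oocyte genes (both −0.32) fall to the left in narrow bands.

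Genes of germline regulation were lower with 1 exception, by small amounts. Of 40 germline RNA regulator and meiosis genes 39 (97.5%) were lower and 0 higher, with a median of −0.32, and in 37 all mutant libraries were below all of wild type. glh-1 (chromosome I, 6854478 to 6857536), a Vasa-like helicase of the P granules, stood at 978, 1041, 976, 972 and 949.6 CPM in wild type and at 590.4, 649.5, 588, 545 and 562 CPM in mutants. The groups were well apart, at −0.74 ± 0.05 (adjusted p = 1.34e-13). pgl-1, another P granule protein, was at −0.48 ± 0.04, htp-1 of the meiotic chromosome axis at −0.45 ± 0.04, gld-1, a repressor of translation, at −0.43 ± 0.04 and csr-1, a germline Argonaute, at −0.54 ± 0.05. Oocyte and eggshell genes were alike: 30 of 36 (83.3%) were lower and 2 higher, with a median of −0.32. The lower ones included egg-2, a receptor at the egg surface (−0.43 ± 0.05), the RNA-binding genes puf-3 (−0.38 ± 0.05), mex-5 (−0.31 ± 0.04) and mex-3 (−0.34 ± 0.05), and rme-2, the yolk receptor (−0.39 ± 0.05). The 2 higher were perm-2, of the eggshell's permeability barrier (0.29 ± 0.04), and cav-1, a caveolin (0.77 ± 0.14), and 4 were higher without swsn-9 replicate 2 or replicate 3.

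Few sperm genes were called. Of 41 spermatogenesis genes 1 was higher and 5 lower (median −0.15). The number lower was 2 without wild type replicate 1 and 3 without swsn-9 replicate 3, and the number higher was 3 without wild type replicate 4 and 2 without swsn-9 replicate 2. Of 28 genes for major sperm proteins 0 were called by edgeR (0 also at an unadjusted p under 0.05, and 0 by DESeq2), although without mutant replicate 5 it was 5 lower. Their summed level ran from 64.2 to 354 CPM in wild type and from 23.2 to 429.7 CPM in mutants, a spread within genotypes that covers both groups. In wild type harvested 6 h later than the first, 2003 of all 16934 genes were lower and 7.69% were higher. Of the 28 genes for major sperm proteins 27 were lower, with a median of −3.39, and 26 of 36 oocyte genes were higher. That contrast uses the same wild-type libraries as the comparison of genotypes, so the values stand side by side only. Of 6 yolk protein genes 2 were lower. vit-1 went from 6513, 8499.9, 7577, 7195 and 5944 CPM to 4629.8, 5403, 3804, 3478 and 2921 CPM and vit-3 from 5302, 6499.7, 6121, 5898 and 5292 CPM to 3838, 4398, 3422, 3081 and 2045 CPM. All mutant libraries were below wild type in both, with replicate 5 lowest (−0.82 ± 0.16 and −0.79 ± 0.17). The more abundant vit-2 and vit-6 were not called, at 0.07 ± 0.07 and 0.06 ± 0.08, but without mutant replicate 5 both were called higher (0.18 and 0.17), so that 2 of the 6 were higher and 2 lower. Of 24 early zygotic embryo genes 2 were higher and 4 lower, with no steady balance: 4 were higher without swsn-9 replicate 2 or replicate 5, and 2 were lower without wild type replicate 1, swsn-9 replicate 2 or swsn-9 replicate 3.

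The machinery of growth was lower by a similar margin. All 31 genes for proteins of the small ribosomal subunit (rps) and 43 of 47 for the large one (rpl) were lower, with medians of −0.30 for both. rps-4, for example, went from 1989 ± 52.1 to 1589 ± 84.9 CPM (−0.32 ± 0.05). All 29 mrps and 34 of 40 mrpl genes of the mitochondrial ribosome were lower, as were 24 of 25 eif genes of translation initiation, all 13 rpn genes of the proteasome lid and base, all 13 prp splicing genes (8 without mutant replicate 5), 24 of 26 nuclear pore genes (npp) and 10 of 11 rpb genes of RNA polymerase. Their medians ran from −0.30 to −0.21, against 0.06 for all genes. The size of small, uniform shifts like these rests in part on the scaling, here and for the germline and chromatin genes. nol-56 and nol-58, core proteins of the particles that methylate ribosomal RNA, were among the 12 lower genes of smallest p. nol-56 went from 598, 633, 604, 612 and 614 CPM to 391, 406, 396, 374 and 348 CPM, and nol-58 from 638 ± 16.3 to 414 ± 20.5 CPM. Neither overlapped between genotypes, at −0.68 ± 0.05 and −0.62 ± 0.04. In wild type 6 h older, nol-56 and nol-58 were also lower, at −0.62 and −0.59, and 30 of 31 rps and 44 of 47 rpl genes were lower too, where 2003 of all 16934 genes were.

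The 12 genes of smallest p on the lower side also held members that are not in the germline lists or the growth families above. Where in the animal these genes are used was not tested. T10D4.6 (chromosome II, 3119332 to 3123183), for which the tables used here give no function, had 80.03, 73.9, 81.9, 65.8 and 72.1 CPM in wild type and 20.2, 22.5, 22.2, 20.1 and 22.5 CPM in mutants. After swsn-9 it had the smallest p of all genes (−1.8 ± 0.07, adjusted p = 2.87e-19). haf-6 (chromosome I, 1162880 to 1175809), a half-molecule ABC transporter, stood at 38.7, 49.6, 42.5, 45.5 and 42.3 CPM and 9.18, 8.42, 11.401, 8.78 and 6.55 CPM. It was lower, at −2.31 ± 0.10 (adjusted p = 6.79e-18), and Y48G8AL.7, which overlaps it, was not called (0.02 ± 0.07). ctsa-1.1, of the cathepsin A family of carboxypeptidases, went from 394, 389, 366, 397 and 375 CPM to 211, 201, 171, 182 and 181 CPM, again with no overlap (−1.02 ± 0.05).

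nhr-131 (chromosome V, 494370 to 497297), a nuclear hormone receptor gene, had 42 to 74 counts in each wild-type library and 0 in each of the 5 mutant ones. It was at least 115-fold lower over the groups. At 400 mM the mutants again had 0 counts, against 380 in wild type. The neighbours on both sides were not lower: nhr-106 stood at 1.06 ± 0.19 and srlf-35 at 2.96 ± 0.39, both called higher. Y69A2AR.12 and C38D9.8 were the other genes at or near 0 in mutants, with wild-type to mutant ratios of 16.47 (95% counting interval 8.06 to 39.1) and 7.79 (4.10 to 16.3). Y69A2AR.25 (chromosome IV, 2565787 to 2568367), beside Y69A2AR.12 (chromosome IV, 2568614 to 2572158), went from 1.01 ± 0.355 to 0.0635 ± 0.0833 CPM. anp-1 and R119.3 were lower, at −1.49 ± 0.10 and −0.94 ± 0.06, and nap-1, a histone chaperone, at −0.59 ± 0.04.

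Chromatin genes outside the complex were mostly lower by small amounts. Of 16 genes of the synMuv B and DREAM group, which keep germline genes silent in the soma, 13 (81.2%) were lower and 0 higher (median −0.25), or 10 lower without mutant replicate 5, among them lin-9 (−0.33 ± 0.05), mep-1 (−0.28 ± 0.04) and lin-54 (−0.31 ± 0.05). Of 26 other remodelers and Polycomb or COMPASS genes 15 were lower and 4 higher, and the count lower was 7 without mutant replicate 5 and 9 without mutant replicate 1. The ATPases ruvb-1 and ruvb-2, shared by several remodelers, were at −0.42 ± 0.04 and −0.5 ± 0.05. Against this trend jmjd-3.1, a demethylase of histone H3 lysine 27, stood at 7.8, 8.01, 6.83, 6.68 and 7.56 CPM in wild type and 16.6, 17, 17.4, 14.3 and 19.7 CPM in mutants. It was more than 2-fold higher without overlap (1.2 ± 0.11, adjusted p = 7.66e-10). chd-7, a CHD family remodeler, was higher as well (0.64 ± 0.08).

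Lipid genes moved in both directions. Of 57 fat metabolism genes 32 (56.1%) were higher and 8 lower, with a median of 0.25. The delta-9 desaturases fat-5, fat-6 and fat-7, which put the first double bond into palmitic or stearic acid, were all higher. fat-5 (chromosome V, 17725004 to 17726818) stood at 14.2, 11.7, 14.5, 5.86 and 5.87 CPM in wild type and at 97.2, 69, 91.4, 92.3 and 132 CPM in mutants. fat-7 stood at 68.7, 49.3, 47.8, 50.2 and 37.8 CPM and 221, 171, 251, 182 and 261 CPM, and fat-6 went from 160.4 ± 47.9 to 378 ± 39.3 CPM. Each of these genes was higher in every mutant library than in any of wild type, at 3.22 ± 0.26, 2.1 ± 0.24 and 1.24 ± 0.13. Further along the pathway fat-2 was at 0.63 ± 0.08, fat-1 at 0.17 ± 0.05 and fat-4 at 0.24 ± 0.06, while fat-3 did not pass the test (0.29 ± 0.15, adjusted p = 0.118).

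On the side of fat breakdown acs-2 (chromosome V, 15567394 to 15569897), the acyl-CoA synthetase that feeds mitochondrial beta-oxidation, stood at 19, 18.2, 14.6, 19.7 and 28.6 CPM in wild type and at 2.47, 2.44, 4.45, 3.76 and 4.11 CPM in mutants. It was lower in every mutant library than in any of wild type (−2.53 ± 0.21, adjusted p = 3.47e-11). lbp-8, a lipid chaperone of the lysosome, and lipl-4, a lysosomal lipase, went from 1.19 ± 0.336 and 1.22 ± 0.311 CPM to 0.15 ± 0.133 and 0.306 ± 0.0763 CPM, both called lower. The lipases lipl-1 and lipl-3 were higher instead (3.34 ± 0.67 and 3.41 ± 0.84), from low levels. acs-1, which activates branched fatty acids, was higher by 0.84 ± 0.06 and icl-1, of the glyoxylate cycle, by 1.24 ± 0.16. Of the regulators of these genes, nhr-80 (0.78 ± 0.14), sbp-1 (0.57 ± 0.08) and nhr-49 (0.2 ± 0.04) were called higher and the Mediator subunit mdt-15 was not (−0.03 ± 0.04).

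The lists of defence genes held more higher than lower members, and that of the PMK-1 pathway had the largest share higher. Of 51 genes of the PMK-1 pathway and of infection responses 31 (60.8%) were higher and 3 lower, with a median of 0.73, where 23.2% of all genes were higher. irg-8, induced by pathogens, stood at 75.7, 50.5, 46.1, 87 and 86 CPM and 216, 216, 219, 251 and 217 CPM. Wild type varied more between libraries, and the groups did not overlap (1.7 ± 0.16, adjusted p = 4.45e-10). The lysozyme lys-1 was at 1.04 ± 0.10, the bZIP factor zip-2 at 0.75 ± 0.09 and dod-19 at 1.38 ± 0.17. The 3 lower members were dod-24 (−1.07 ± 0.26), F35E12.6 (−0.37 ± 0.10) and clec-85 (−0.6 ± 0.18). Of 23 epidermal antimicrobial peptide genes 7 (30.4%) were higher and 0 lower, with nlp-28 at 1.27 ± 0.20, but the count was 4 without wild type replicate 3. Of 30 genes of the intracellular pathogen response 11 (36.7%) were higher and 0 lower. At an unadjusted p under 0.05, 1 was lower, as for the epidermal peptides and the pharynx, and by DESeq2 0 were. The median of 0.86 became 0.41 with genes of few counts at their bound, and skr-3 (0.83 ± 0.16) and the bZIP gene zip-1 (0.55 ± 0.11) led. With a mean count of at least 10 asked for, 7 were called higher. Of 138 clec genes for C-type lectins 34 (24.6%) were higher and 13 (9.42%) lower, the share higher being near that of all genes.

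Detoxification genes gave no common direction, while the lists of stress and of DAF-16 genes held more higher than lower members. Of 39 detoxification and oxidative stress genes 8 were higher and 11 lower (median −0.07), with cyp-14A5 at 1.71 ± 0.18 and gst-5 at 0.89 ± 0.13 on the one side, and sod-1 at −0.4 ± 0.05 and cyp-25A1 at −1.22 ± 0.18 on the other. The cyp-35A genes were lower, cyp-35A2 at −0.92 ± 0.17, cyp-35A3 at −1.72 ± 0.35 and cyp-35A5 at −1.42 ± 0.31, and as near copies their reads may be lost or split. Of 29 heat shock, ER and mitochondrial stress genes 9 (31%) were higher and 4 (13.8%) lower, against 23.2% and 22.3% of all genes. The median was 0.14, or 0.08 with genes of few counts at their bound. hsp-43, a small heat shock protein gene, went from 47.1, 51.4, 41.4, 49.4 and 44.8 CPM to 110.1, 123, 122.2, 108 and 118.6 CPM. It was 2.48-fold higher without overlap (1.31 ± 0.09), and hsp-3, a BiP of the ER, was at 0.49 ± 0.05, while the mitochondrial chaperonin hsp-60 was lower (−0.53 ± 0.06). Of 32 DAF-16 target and insulin pathway genes 11 (34.4%) were higher and 3 (9.38%) lower, with a median of 0.30. Among them gst-20 was at 1.2 ± 0.17 and the insulin-like ins-7 at 1.64 ± 0.28. sod-3, a widely used readout of DAF-16, was at −1.92 ± 0.57 from low levels.

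Genes linked to ethanol were called about as often as all genes, but with more higher than lower members. Of 25 ethanol response and withdrawal genes 9 (36%) were higher and 3 (12%) lower, against 23.2% and 22.3% of all genes. Their median was 0.41, and the share called was 48% against 45.5% of all genes. slo-1 (chromosome V, 18492261 to 18508212), the calcium-activated potassium channel through which ethanol acts on worm behaviour, stood at 3.03, 3.44, 3.3, 3.91 and 2.9 CPM in wild type and at 5.94, 6.18, 7.24, 8.73 and 11.7 CPM in mutants. Every mutant value was higher, the largest that of replicate 5, and the log2 fold change was 1.26 ± 0.21 (adjusted p = 9.03e-06; 1.11 without replicate 5). unc-18, which binds syntaxin, was at 0.36 ± 0.06, and hlh-30, the TFEB homologue, and ctbp-1, a corepressor, were at 0.41 ± 0.08 and 1.07 ± 0.24. On the lower side were alh-1, an aldehyde dehydrogenase (−0.22 ± 0.05), acs-19, an acyl-CoA synthetase (−0.18 ± 0.05), and dod-24, whose groups overlapped, at 21.2 ± 9.22 and 10.1 ± 2.62 CPM.

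Calls were not spread evenly over the chromosomes. On the X chromosome 37.8% of 2382 genes tested were higher and 6.55% lower, against 23.2% and 22.3% of all genes, with a median log2 fold change of 0.31. Chromosomes I and III had the reverse order, 18.0% higher and 31.4% lower on I and 18.2% higher and 32% lower on III, with medians of −0.07 and −0.06. Chromosome V stood between, at 25.2% and 17.8%. Without mutant replicate 5 the X chromosome still had 887 genes higher and 120 lower. The region around the mutated gene was not set apart: within 1 Mb of swsn-9, leaving it out, 17.9% of 425 genes were higher and 33.4% lower, and on the rest of chromosome I 18.1% and 31%.

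**Figure D4:**
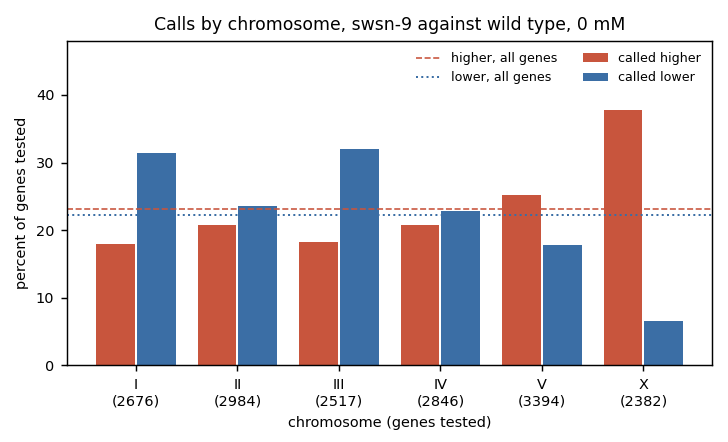
Percent of the genes tested on each chromosome that were called higher (red) or lower (blue) in swsn-9 mutants at 0 mM, with the shares over all genes as dashed and dotted lines (23.2% and 22.3%). The X chromosome has 37.8% higher and 6.55% lower, while chromosomes I and III have 31.4% and 32% lower.

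Neighbouring genes called in the same direction were counted as runs. How many runs the shares called would give by themselves was not worked out. Those shares were 37.8% higher and 6.55% lower on X, and 31.4% lower on I. Runs were not counted without mutant replicate 5. Runs of at least 4 adjacent tested genes called in the same direction numbered 115 on the higher side (536 genes, 43 runs on X) and 163 on the lower side (767 genes, 52 on I and 1 on X). The longest was of 11 genes higher on chromosome IV, from klp-11 to T28C6.10 (8756735 to 8819175). On X, 6 genes from clc-1 to lpr-4 (11047446 to 11066811), among them the lipocalins lpr-3, lpr-4, lpr-5 and lpr-6, had a median of 4.39. The collagens col-167 to col-170 (X, 6323488 to 6332611) had a median of 3.64. The strand used in counting is not stated, so reads of overlapping neighbours may be counted together. Of the 141 genes chosen by the naming rule, 42 overlap another annotated gene.

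The same genotypes after ethanol gave a second look at these genes in libraries that share none with those above. Exposures to 0 and 400 mM were run in parallel, so a difference between days or cultures of the genotypes would recur at both doses. At 400 mM 8874 genes (52.4%) were called between mutants and wild type, 26.8% higher and 25.6% lower. Of the 7707 genes called at 0 mM, 6001 were called in the same direction, which is 77.9% of the calls at 0 mM and 67.6% of those at 400 mM, and 57 in the opposite one. For hypodermis and seam genes 27 were higher and 2 lower at 400 mM, for germline regulators 0 and 37, and for cilium genes 14 and 1. For the flp genes the number higher was 24 of 30, against 3 at 0 mM (11 at an unadjusted p under 0.05 and 6 by DESeq2). Whether the genotype difference of the flp genes as a group changed with ethanol was not tested. dpy-17 was at 3.07, noah-2 at 4.95, haf-6 at −2.21 and T10D4.6 at −1.98.

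The genotype difference itself depended on ethanol for 703 genes (4.15%; 1.4% higher and 2.75% lower), by the interaction term of the same fit. acs-2 was the clearest of the genes named here. It stood at −2.53 ± 0.21 at 0 mM and at 0.05 after ethanol, an interaction of 2.58 (adjusted p = 4.11e-07), with 74.8 ± 10.3 CPM in wild type and 77.2 ± 18.3 CPM in mutants at 400 mM. fat-5 went the other way, from 3.22 to 1.3 (−1.92, adjusted p = 9.49e-04), and hbl-1 from 2.95 to 2.03 (−0.92, adjusted p = 0.0269). For swsn-9 itself the interaction was 0.03 (adjusted p = 0.885).

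**Figure D5:**
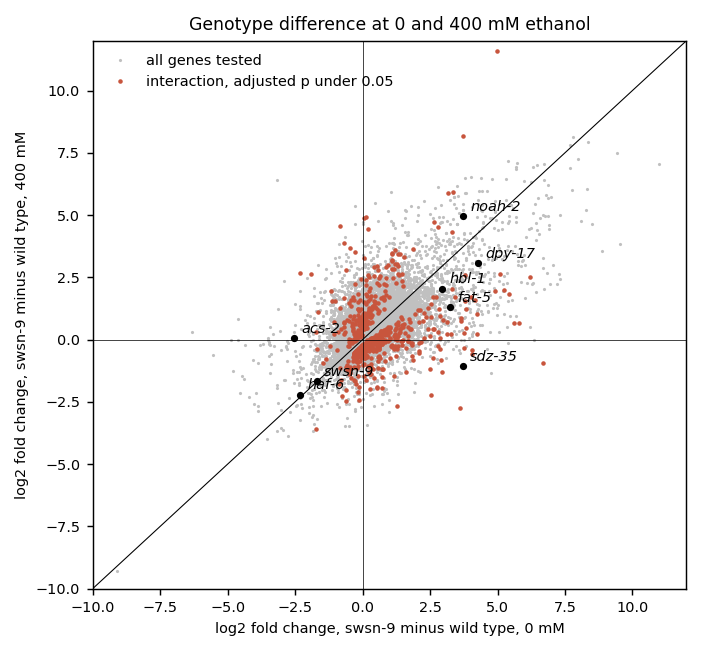
Log2 fold change of swsn-9 mutants over wild type at 0 mM (x axis) and at 400 mM ethanol (y axis) for each gene tested (grey), with the 703 genes of adjusted p under 0.05 in the interaction in red and named genes in black. Most genes lie near the diagonal, as swsn-9 does at −1.7 and −1.67, whereas acs-2 lies at −2.53 on the x axis and 0.05 on the y axis.

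Set against wild type that was 6 h older, the same mutant libraries differed in 9875 genes (58.3%), 5595 higher (33%) and 4280 lower (25.3%). Both comparisons use the 5 mutant libraries, so they are not independent. Hypodermis and seam genes were higher in 31 and lower in 2 of 35 in that setting, with a median of 3.35. In wild type 6 h older than the first, 9 of the 35 were lower and 1 higher. Their median with age was −0.57, against −0.04 for all genes, so the larger median here is no separate support. Whether the genotypes differed in stage was not tested. Germline regulators were lower in 36 of 40, with a median of −0.37. dpy-17 stood at 4.32 ± 1.24 CPM, noah-2 at 4.16 ± 1.08 CPM and fat-5 at 26.5 ± 5.31 CPM in the older wild type. All 3 levels were below those of the mutants.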

How the data were processed

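Whole-animal RNA was sequenced as paired ends. Per the labels and the paper's methods, the authors aligned reads with STAR (2.6.0a) and deposited whole-number counts per gene, kept only where a read aligned once and not normalized. Whether the counting used strand is not given in the sources used here. Gene positions and names come from the WBcel235 annotation, in which 46484 of the 46739 gene IDs were found. The build the paper names is spelled otherwise, and gene IDs, not positions, made the match.

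Counts of all 30 libraries were fitted together by 6 groups with edgeR (4.0.16, R 4.3.3), with TMM scaling and a mean count of at least 1, which left 16934 genes. Coefficients were tested by quasi-likelihood with Benjamini-Hochberg adjustment over all of them. DESeq2 (1.42.0) was an alternative, with other scalings, filters, 10 libraries alone, a replicate block and each library left out. In simulated data of 16741 genes for the 0 mM comparison, 83 of 100 changes of 1 and 49 of 100 of 0.5 (log2) were recovered, and 1 of 16541 unchanged genes was called. Only 200 genes were changed there, equally up and down, all with a mean count of at least 10. In the data 45.5% of genes were called, with unequal sizes by direction, so the simulation does not give the share of false calls among them.

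The genes named are the subunits, the 12 of smallest p in each direction whose libraries did not overlap, the 6 with most counts in each direction among those near 0 in one genotype, and up to 4 called members of smallest p of each of 30 lists (815 entries, 797 matched). Name families had at least 10 tested genes (152 families). Other genes were named after their values were seen. The comparison, its members and its lists were chosen with earlier results of these data known. Intervals and floors cover counting error only, and PCR copies are not independent molecules. Libraries of a group were collected on different days, and p-values measure the spread between them.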

Additional observations from a re-analysis of the deposited data

Results flagged for a closer look

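Among 43 genes, each looked at in the 5 libraries of both genotypes (86 groups of libraries), 5 groups had a library far from the rest, and chance marks about 1 group in 20. swsn-6, a core subunit, stood at 83.46 CPM in swsn-9 replicate 5 against 97.5 to 101 CPM in the other mutant libraries. eef-1A.2 stood at 262.4 CPM in wild type replicate 2 against 215 to 227 CPM. F41F3.3 stood at 28.236 CPM in swsn-9 replicate 5 against 9.94 to 13.3 CPM. For col-121, swsn-9 replicate 5 stood at 14.612 CPM against 7.41 to 8.51 CPM, and wild type replicate 2 at 0.14054 CPM against 0 in the others.

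Of 141 genes named by rule, 21 had a genotype difference that changed with ethanol by the interaction term of edgeR, against 4.15% of all genes tested. Most of the 141 were chosen by their p at 0 mM, a difference that enters the interaction, so the share is a description only. Log2 fold changes of mutants over wild type are given at both doses. 

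Genes of the cuticle and of timing stood as follows. dpy-17 went from 4.29 at 0 mM to 3.07 at 400 mM, an interaction of −1.22 (adjusted p = 0.00828). noah-2 went from 3.73 at 0 mM to 4.95 at 400 mM, an interaction of 1.221 (adjusted p = 0.0157). noah-1 went from 3.31 at 0 mM to 4.34 at 400 mM, an interaction of 1.032 (adjusted p = 0.0494). hbl-1 went from 2.95 at 0 mM to 2.03 at 400 mM, an interaction of −0.9162 (adjusted p = 0.0269).

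Genes of fat and carbon metabolism and of detoxification followed. acs-2 went from −2.53 at 0 mM to 0.05 at 400 mM, an interaction of 2.582 (adjusted p = 4.11e-07). fat-5 went from 3.22 at 0 mM to 1.3 at 400 mM, an interaction of −1.923 (adjusted p = 9.49e-04). acs-1 went from 0.84 at 0 mM to 0.2 at 400 mM, an interaction of −0.6431 (adjusted p = 1.42e-05). icl-1 went from 1.24 at 0 mM to 0.47 at 400 mM, an interaction of −0.7702 (adjusted p = 0.0336). alh-1 went from −0.22 at 0 mM to 0.29 at 400 mM, an interaction of 0.5065 (adjusted p = 1.07e-05). cyp-25A1 went from −1.22 at 0 mM to −0.25 at 400 mM, an interaction of 0.9701 (adjusted p = 0.0143).

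Stress and defence genes were the next group. hsp-43 went from 1.31 at 0 mM to 0.7 at 400 mM, an interaction of −0.6092 (adjusted p = 0.00333). hsp-60 went from −0.53 at 0 mM to −0.86 at 400 mM, an interaction of −0.3308 (adjusted p = 0.0145). hsp-3 went from 0.49 at 0 mM to 0.17 at 400 mM, an interaction of −0.3231 (adjusted p = 0.0114). dod-19 went from 1.38 at 0 mM to 0.42 at 400 mM, an interaction of −0.962 (adjusted p = 0.0156). sdz-35 went from 3.7 at 0 mM to −1.08 at 400 mM, an interaction of −4.782 (adjusted p = 0.012).

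The rest were of mixed function. unc-18 went from 0.36 at 0 mM to −0.06 at 400 mM, an interaction of −0.4251 (adjusted p = 0.00233). tbh-1 went from −0.84 at 0 mM to −1.15 at 400 mM, an interaction of −0.31 (adjusted p = 0.0425). vit-3 went from −0.79 at 0 mM to −1.62 at 400 mM, an interaction of −0.83 (adjusted p = 0.0374). H29C22.1 went from 1.53 at 0 mM to 0.64 at 400 mM, an interaction of −0.8876 (adjusted p = 1.33e-05). R119.3 went from −0.94 at 0 mM to −0.42 at 400 mM, an interaction of 0.5219 (adjusted p = 3.30e-04). anp-1 went from −1.49 at 0 mM to −0.92 at 400 mM, an interaction of 0.5602 (adjusted p = 0.0183).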

How the results depend on the processing

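The number of genes called between swsn-9 mutants and wild type at 0 mM (7707) ran from 6763 with a mean count of at least 10, through 7043 with 10 libraries alone, 7210 without a filter, 7422 by DESeq2 and 7566 with RLE scaling, to 7658 with upper-quartile scaling. Leaving out 1 library at a time gave 6626 to 7631, the lowest without swsn-9 replicate 5 (3781 higher and 2845 lower). With the replicate block the count was 7617, and 6928 with the block in 10 libraries alone, an alternative chosen after seeing the data. Replicate numbers gave no clear pairing of the libraries: 1 of 5 same-numbered pairs had a correlation of deviations over 0.1, and 2 of 10 libraries correlated best with their own number. These correlations cannot show whether same-numbered libraries were collected together. No called result changed direction under the alternatives run. Of the named genes, swsn-1, swsn-4, pbrm-1 and phf-10, not called and near 0, changed sign in some, as without swsn-9 replicate 5 (swsn-4 0.07, pbrm-1 0.07, phf-10 0.01 and swsn-1 0.0015). Over the single comparisons of a named gene or a list count with its main value, 3534 kept the call or count, 32 lost the call, 2 gained it and 44 list counts moved by over 1.5 times. Calls of ham-3, snfc-5, swsn-6, swsn-7, cup-2, fog-1 and unc-17 were lost in at least 1 alternative, and dpff-1 gained one. The interaction count was 703, 707 with the block and 905 by DESeq2. Small RNA genes and genes of few counts are limited by depth, and ribosomal RNA took 6.43% of wild type replicate 5.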
